A study of Mus musculus with 4 samples.

Results

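The collagen chain genes are the genes that encode the α chains of the collagens, the triple-helical proteins of the extracellular matrix. They were taken as every gene of the deposited tables whose symbol consists of Col, a type number, the letter a and a chain number, which gave 44 of 55487 genes. The 44 genes belong to 27 collagen types. They were measured by RNA-seq in muscle stem cells, also called satellite cells, that were freshly isolated from mouse skeletal muscle. The libraries came from 2 samples labelled Rbfox2 knockout, called cKO here, and 2 samples labelled Control. The Rbfox2 protein binds pre-mRNA and directs the choice of exons in splicing. According to the series description, floxed Rbfox2 was removed by a tamoxifen-inducible Cre recombinase expressed from Pax7 (Pax7CreERT2), and a Rosa26 EYFP allele gave the recombined cells a yellow fluorescent label. In muscle, Pax7 drives the Cre in satellite cells, so other cells in a sample would keep Rbfox2. Which of these alleles the Control mice carried, whether they received tamoxifen, and the age of the animals are not given in the labels. The labels do not say that the samples came from separate animals. The p-values set each difference against a spread estimated from these samples, with information shared across genes. That spread may be technical and may not hold the variation between animals.

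Collagen chains assemble as trimers in the endoplasmic reticulum, where prolines and lysines are hydroxylated before the helix folds. The fibril-forming types give connective tissue its strength, type 4 builds the network of the basement membrane, and type 6 forms beaded filaments that link that membrane to the fibrils. Satellite cells lie between the muscle fibre and its basement membrane and make part of this matrix themselves. In mouse satellite cells Notch signalling is known to raise Col5a1, Col5a3, Col6a1 and Col6a2, and collagen of type 5 acts through the calcitonin receptor to keep the cells quiescent.

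Each library held between 68884091 and 101997422 estimated counts, of which 0.144% to 0.199% fell on the collagen chain genes. Rbfox2 stood at 40.0 and 15.2 CPM in the cKO libraries, against 131 and 56 CPM in the Control libraries (log2 fold change -1.76 with an SE of 0.35, and a Benjamini-Hochberg adjusted p of 0.000252 by edgeR's quasi-likelihood method). CPM is the count as a share of the library, with library sizes scaled by the TMM method. The cKO 1 library stood apart by a higher low-level background. The median over 1436 olfactory and vomeronasal receptor genes, which satellite cells are not known to use, was 0.689 and 0.247 TPM in cKO 1 and cKO 2, against 0.347 and 0.417 TPM in Control 1 and Control 2. TPM is a level corrected for transcript length and library size, and it is the scale on which genes are compared with each other here. In bulk samples, fewer cells of a type and less RNA per cell cannot be told apart.

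A few chains made up most of the collagen transcripts. The sum over all 44 genes was 663 and 474 TPM in cKO 1 and cKO 2, against 535 and 596 TPM in Control 1 and Control 2, so the cKO libraries held both the highest and the lowest sum. The 5 most abundant chains, Col3a1, Col5a2, Col4a1, Col6a1 and Col19a1, held 65.2% and 70.4% of that sum in cKO, against 76.8% and 76.5% in Control. Of the 44 genes, 14 had a mean level of at least 5 TPM, 12 lay between 1 and 5 TPM and 18 lay under 1 TPM. In the plot of levels by library, Col3a1 and Col5a2 are the uppermost chains in all 4 libraries.

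**Figure D1:**
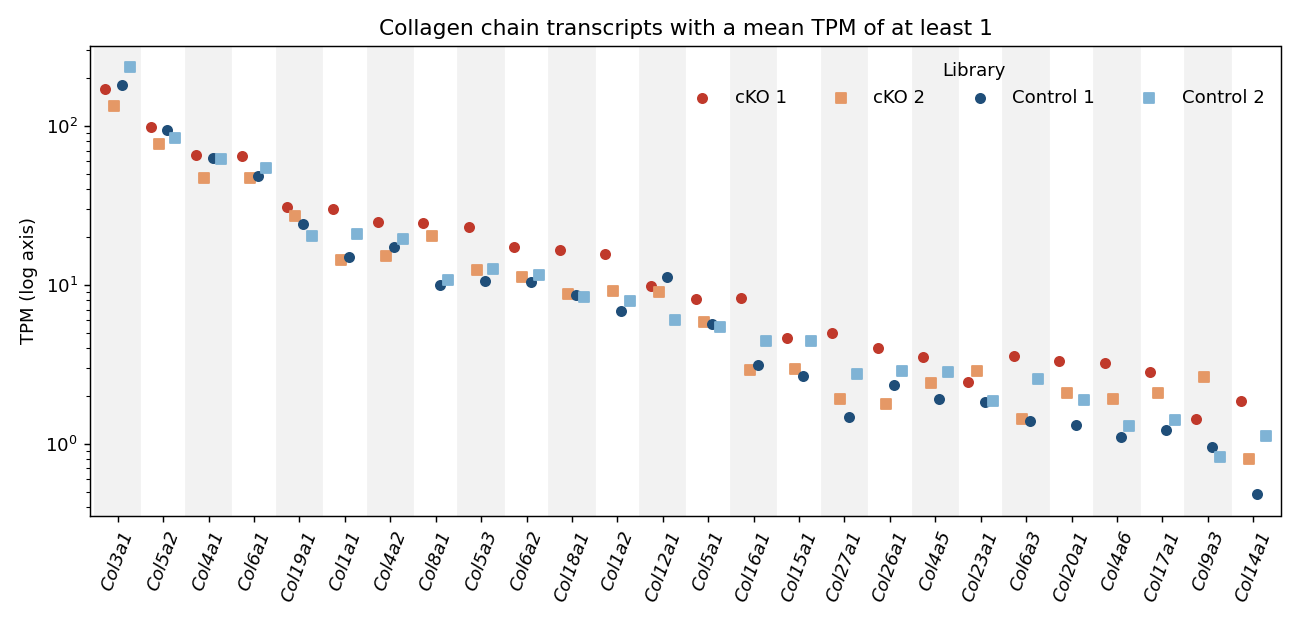
TPM (log axis) of the 26 collagen chain genes that averaged 1 TPM or more, ordered by mean level. Each point is 1 library, with cKO 1 and cKO 2 left of Control 1 and Control 2. For 22 of the 26 genes cKO 1 is the highest point, and Col8a1 has both cKO points above both Control points.

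Col3a1, a fibril-forming chain that builds homotrimers in elastic tissues, was the most abundant collagen transcript in every library, at 172 and 135 TPM in cKO and 181 and 235 TPM in Control. Col5a2, the type 5 chain that joins trimers controlling fibril diameter, followed at 98.6 and 77.6 TPM in cKO and 94.2 and 84.7 TPM in Control. These first-ranked genes are neighbours on chromosome 1 of GRCm38, with Col3a1 from 45311538 to 45349706 on the plus strand and Col5a2 from 45374321 to 45503282 on the minus strand, 24614 bases apart and tail to tail. Col1a1, which is the leading chain of tendon and bone, ranked sixth. It stood at 30.1 and 14.3 TPM in cKO and 14.9 and 20.8 TPM in Control. The ratio of Col3a1 to Col1a1 TPM was 5.71 and 9.41 in cKO, against 12.2 and 11.3 in Control, so both cKO libraries had the lower ratio and they differed between themselves by more than the gap to Control.

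By collagen type, type 3 held 25.9% and 28.4% of the collagen TPM in cKO 1 and cKO 2, against 33.9% and 39.4% in Control 1 and Control 2. The groups did not overlap in this share. Type 5 held 19.6% and 20.2% in cKO and 20.7% and 17.2% in Control, and type 4 held 15% and 14.2% in cKO and 15.8% and 14.5% in Control. Type 6 held 13.3% and 12.8% in cKO, against 11.5% and 11.7% in Control. Type 8 held 3.84% and 4.41% in cKO, against 1.96% and 1.92% in Control, a separation wider than the spread within either group. These shares sum to 100% within a library, so a lower share of an abundant type raises the others. With Col3a1 left out, the other 43 genes summed to 491 and 340 TPM in cKO and 353 and 361 TPM in Control.

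**Figure D2:**
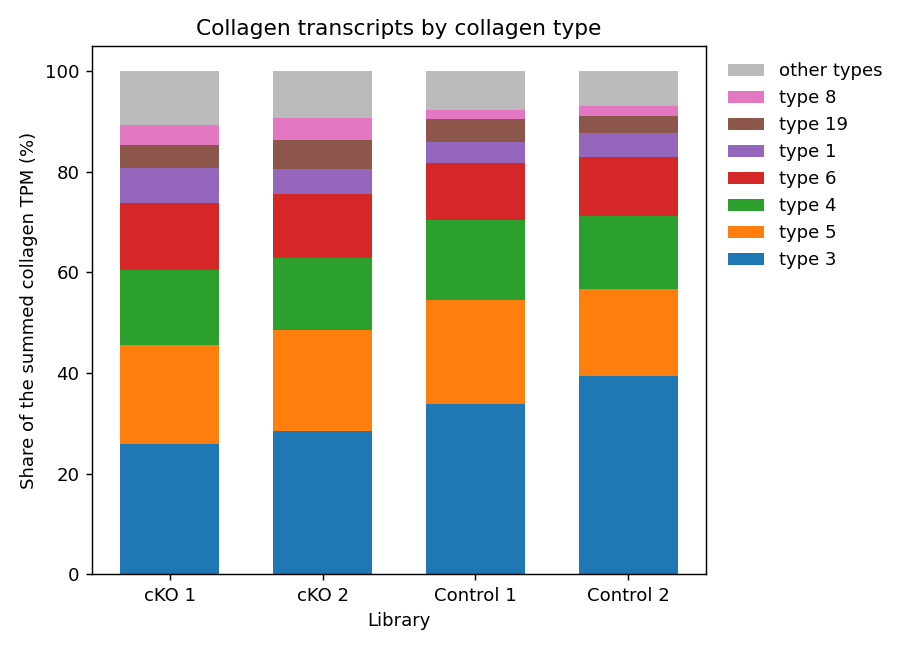
Share of the summed collagen TPM (%) by collagen type in cKO 1, cKO 2, Control 1 and Control 2. The type 3 segment is 25.9% and 28.4% in cKO against 33.9% and 39.4% in Control, and the type 8 segment is 3.84% and 4.41% in cKO against 1.96% and 1.92% in Control.

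The partners of a trimer did not have equal transcript levels. Col1a1 exceeded Col1a2, its partner in type 1 trimers, by 1.93 and 1.57 times in cKO and 2.18 and 2.62 times in Control on the TPM scale. Col5a2 exceeded Col5a1, which is needed to nucleate collagen fibrils, by 12 and 13.3 times in cKO and by 16.6 and 15.7 times in Control. Col6a1 exceeded Col6a2 by 3.75 and 4.23 times in cKO and 4.65 and 4.69 times in Control. Of 10 ratios between chains of the same type, both cKO values lay below both Control values for 6, these 3 pairs among them. The groups overlapped for 3. For 1, Col8a1 over Col8a2, both cKO values lay above, at 27.4 and 43.5 in cKO against 20.8 and 14.9 in Control. Col8a2 exceeded the 95th percentile of the receptor genes in 0 libraries, so this ratio divides by a level near the background. The 10 pairs were a chosen set in which chains of types 5 and 6 recur, and the direction depends on which chain is the numerator. No share over other gene pairs was taken, so these counts do not show a shift in chain balance. Col6a3, the long chain that completes the main type 6 trimer, was far below its partners, at 3.54 and 1.43 TPM in cKO and 1.38 and 2.55 TPM in Control.

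The chains of type 4 lie in head-to-head pairs that share the DNA between their starts, so the sequences at these starts are given to show how close the paired genes lie. All letters are from the RefSeq promoter table on GRCm38.p6, read 5′ to 3′, and the gene starts that bound them are those of GENCODE. In the first, the capitals run from the start of Col4a2, which is read rightwards, to the start of Col4a1, which is read leftwards, so the annotated first exons overlap by 22 bases (chr8:11312801-11312830, plus strand). The second is all that lies between Col4a4, read leftwards, and Col4a3, read rightwards, a stretch of 71 bases with no part marked (chr1:82586850-82586920, plus strand). The third is the 216 bases before the start of Col4a5 on the side of Col4a6, whose start is 1309 bases away (chrX:141475169-141475384, plus strand), with GTGGGAA, the core of the RBPJ motif that carries Notch signals to DNA, in capitals.
Col4a1 and Col4a2: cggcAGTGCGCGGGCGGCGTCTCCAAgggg
Col4a4 and Col4a3: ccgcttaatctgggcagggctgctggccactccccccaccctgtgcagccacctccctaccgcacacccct
Col4a5: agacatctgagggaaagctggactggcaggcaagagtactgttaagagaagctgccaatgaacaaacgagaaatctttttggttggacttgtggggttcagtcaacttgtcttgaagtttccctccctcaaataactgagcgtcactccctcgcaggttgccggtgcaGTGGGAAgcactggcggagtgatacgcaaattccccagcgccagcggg

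Genes with paired starts did not have equal transcript levels. Col4a1 and Col4a2, the chains of nearly every basement membrane, stood at a TPM ratio of 2.66 and 3.10 in cKO and 3.60 and 3.19 in Control. Col4a3 and Col4a4, chains of the basement membrane of the kidney glomerulus, were both low, at 0.287 to 1.00 TPM for Col4a3 and 0.521 to 1.11 TPM for Col4a4 over the 4 libraries. Col4a5 and Col4a6 stood between these, with Col4a5 at 1.09 and 1.27 times Col4a6 in cKO and at 1.74 and 2.18 times in Control. RefSeq promoter windows, from 250 bases before to 50 after a start, were given for 35 of the 44 genes. GTGGGAA was searched on both strands and occurred in 2 of these 35 genes, Col4a5 and Col10a1, which is 5.71%, against 7.25% of the 27025 genes with a window. The windows of Col5a1, Col5a3, Col6a1 and Col6a2 did not hold these letters, which says nothing of sites outside the windows or of the factor.

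The question of the design was whether gene levels differed between the cKO and Control samples. Rbfox2 transcripts were reduced in cKO and not absent, and unequally so, at 40.0 CPM in cKO 1 and 15.2 CPM in cKO 2. All 44 collagen chain genes passed the filter on low counts, and 0 of them rose and 0 fell in cKO at the threshold of 0.05 on edgeR's adjusted p. Over all 38143 genes tested, 0.551% were called, 0.364% as higher in cKO and 0.186% as lower. At an unadjusted p under 0.05 there were 4 collagen genes, Col8a1, Col17a1, Col4a6 and Col4a3, which is 9.09%, against 4.83% of all genes. DESeq2 also called 0 of the 44 after adjustment and gave 3 at an unadjusted p under 0.05. On TPM, limma called 0 of the 26 genes that averaged 1 TPM or more, where 0.308% of all genes were called. It gave 4 collagen genes an unadjusted p under 0.05. The shares of all genes at an unadjusted p were not taken for DESeq2 or limma, so their 3 and 4 cannot be judged against them. These counts rest on 2 libraries against 2, and the standard errors of the log2 fold changes ranged upward from 0.32, so differences of the sizes given below could mostly not be detected.

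The log2 fold change was positive for 33 of the 44 genes, or 75.0%, against 55.0% of all genes tested. The median was 0.27, against 0.06 for all genes. With library totals in place of TMM factors the median of all genes moved to 0.25 and that of the collagen genes to 0.46. In CPM, the lower cKO library exceeded the higher Control library for 16 of the 44 genes (36.4%, against 18.0% of all genes) and the reverse held for 5 (11.4%, against 13.3%). In TPM, the groups did not overlap with cKO higher for 10 of the 26 collagen genes that averaged 1 TPM or more. With cKO lower this held for 1, Col3a1. Over all 17210 genes that averaged 1 TPM or more, the shares without overlap were 32.0% with cKO higher and 15.7% with cKO lower. The cKO 1 library was the highest of the 4 for 27 genes in CPM (61.4%, against 37.7% of all genes). On the TPM scale it was the highest for 22 of these 26 genes (84.6%, against 51.3%). The part of that library's higher background in these counts was not tested. Relative to the Control mean, the median difference of the collagen genes in log2(CPM + 0.5) was 0.30 in cKO 1 and 0.12 in cKO 2, against 0.09 and -0.03 for all genes. With cKO 1 left out the median fold change of the collagen genes was 0.13, against -0.06 for all genes.

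**Figure D3:**
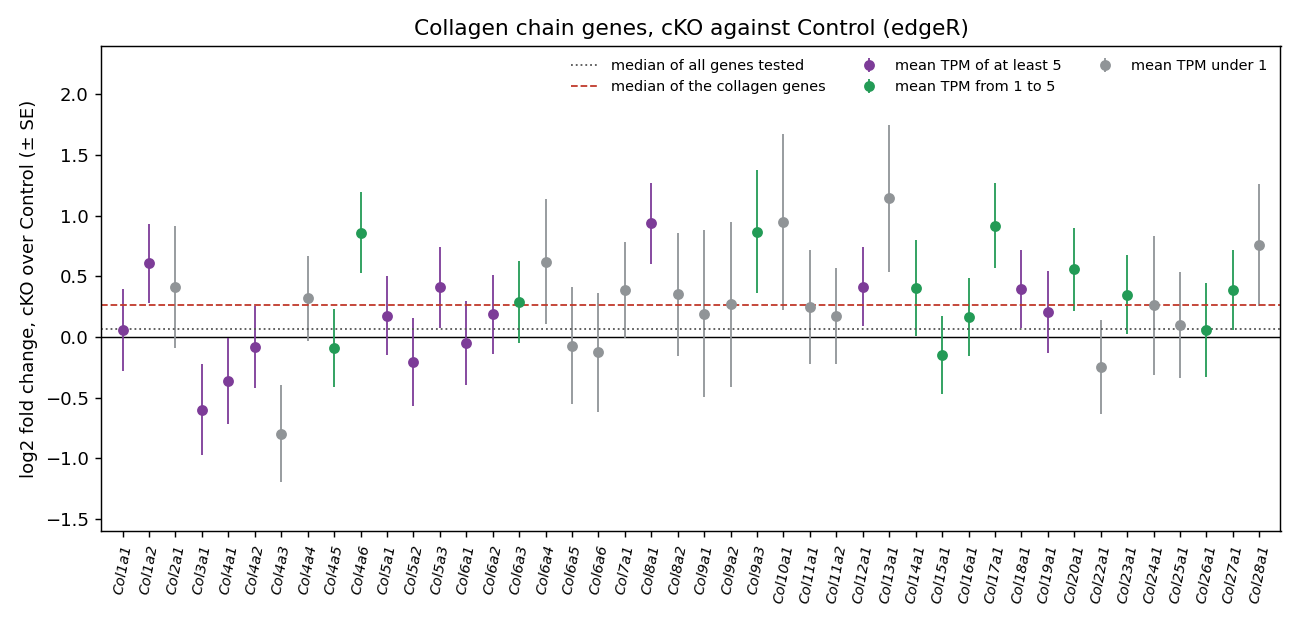
Log2 fold change of each of the 44 collagen chain genes, cKO over Control, with its standard error, from edgeR on counts. Colours mark the mean TPM, the dashed line is the collagen median of 0.27 and the dotted line the median of 0.06 over all genes tested. Col13a1 has the highest value and Col4a3 the lowest, both in the group under 1 TPM.

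Among the fibril-forming chains, 11 genes of types 1, 2, 3, 5, 11, 24 and 27, the median log2 fold change was 0.25 and 0 were called. Col3a1 stood at 411 and 468 CPM in cKO 1 and cKO 2, against 585 and 748 CPM in Control 1 and Control 2. Both cKO libraries were below both Control libraries, and the log2 fold change was -0.60 with an SE of 0.37 (adjusted p = 1.00 in edgeR). On the TPM scale limma gave -0.44 (adjusted p = 0.287). The call was made by edgeR only with cKO 2 left out, at -0.77, where 1 cKO library is assumed to vary like the others.

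Col1a1 stood at 74.6 and 52.7 CPM in cKO and 51.7 and 70.6 CPM in Control, so its groups overlapped fully (log2 fold change 0.06, SE 0.34). Its partner Col1a2 stood at 33.2 and 28.7 CPM in cKO, against 18.1 and 22.5 CPM in Control, with no overlap (0.61, SE 0.33, adjusted p = 1.00 in edgeR). In a trimer made of both, Col1a2 is the minor chain. Col5a2 was at 278 and 316 CPM in cKO and 362 and 324 CPM in Control (-0.21, SE 0.36). The cartilage chains Col2a1, Col11a1 and Col11a2 were low, with means of 0.51 to 0.94 TPM in either group, and the minor fibrillar chains Col24a1 and Col27a1 had log2 fold changes of 0.26 and 0.39.

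The Notch targets of type 5 and type 6 were all detected well above the receptor background and none was called. Col5a1 stood at 29.9 and 31.5 CPM in cKO, against 27.7 and 26.7 CPM in Control (log2 fold change 0.17, SE 0.33). The groups did not overlap, but the gap was small. Col5a3 stood at 61.6 and 49 CPM in cKO, against 38.3 and 45.1 CPM in Control (0.41, SE 0.33), and cKO 1 was the higher of the cKO libraries. Col6a1 stood at 117 and 124 CPM in cKO and 118 and 131 CPM in Control (-0.05, SE 0.35), with overlapping groups. Col6a2 stood at 32.7 and 30.5 CPM in cKO, against 26.5 and 29.0 CPM in Control (0.19, SE 0.33). The adjusted p was 1.00 for each of the 4 in edgeR. Their median was 0.18, below the median of all 44 collagen genes, and Col6a1 took either sign among the alternatives, from -0.16 to 0.12.

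Of the other type 6 chains, Col6a3 stood at 6.31 and 5.49 CPM in cKO and 4.87 and 4.8 CPM in Control (log2 fold change 0.29, SE 0.34). Col6a4, Col6a5 and Col6a6, which can take the place of Col6a3 in the trimer and lie side by side on chromosome 9, averaged between 0.28 and 0.75 TPM in each group.

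The network-forming and beaded chains, 16 genes of types 4, 6, 8, 10 and 28, had a median of 0.24, 9 positive values and 0 called. In type 4, Col4a1 stood at 185 and 178 CPM in cKO, against 235 and 232 CPM in Control, with replicates close together and no overlap (log2 fold change -0.36, SE 0.36, adjusted p = 1.00 in edgeR). Its TPM overlapped between the groups, at 66.0 and 46.8 in cKO and 62.6 and 61.9 in Control. Col4a2, read from the paired start, stood at 68.1 and 60.3 CPM in cKO and 64.7 and 71.5 CPM in Control (-0.09, SE 0.34). Col4a6, which is found with Col4a5 in the basement membrane of smooth muscle, stood at 9.12 and 7.62 CPM in cKO, against 4.37 and 4.84 CPM in Control (0.86, SE 0.33, adjusted p = 0.516). Its head-to-head partner Col4a5 stood at 8.03 and 7.42 CPM in cKO and 7.40 and 9.04 CPM in Control (-0.09, SE 0.32). The difference between the partners' fold changes was not tested. Col4a3 was lower in both cKO libraries, at 2.35 and 1.38 CPM against 3.98 and 2.50 CPM in Control (-0.80, SE 0.40, adjusted p = 1.00). Its TPM overlapped, at 1.00 and 0.287 in cKO and 0.914 and 0.539 in Control, with cKO 1 the highest. The log2 fold change was -1.22 without cKO 1 and -0.53 without cKO 2, -0.44 without Control 1 and -1.12 without Control 2, and -0.48 with length offsets. It shares 563 exonic bases with a gene on the opposite strand, C430014B12Rik, and without strand information reads of the pair may not have been separated.

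Col8a1 had the smallest p of the 44 genes. It encodes a short-chain collagen that forms hexagonal networks and is made by endothelial and smooth muscle cells, among others. The gene (ENSMUSG00000068196.5) lies on chromosome 16 of GRCm38, from 57624258 to 57754737, on the minus strand. It stood at 53.0 and 65.1 CPM in cKO 1 and cKO 2, against 29.9 and 31.8 CPM in Control 1 and Control 2. Both cKO libraries were above both Control libraries, and the higher of them was cKO 2 in CPM and cKO 1 in TPM. The means were 59.1 ± 8.53 CPM in cKO and 30.8 ± 1.34 CPM in Control (SD, n = 2 each). The log2 fold change was 0.94 (SE 0.33, unadjusted p = 0.00502, adjusted p = 0.363 in edgeR). On the TPM scale the values were 24.5 and 20.5 in cKO, against 10.0 and 10.7 in Control, and limma gave 1.04 (adjusted p = 0.0572). The sign was positive in all 11 alternatives to the counts fit, with log2 fold changes from 0.71 to 1.09. It was called in 3 of them, which used library totals only or left out cKO 1 or cKO 2. The 2 fits that leave out a cKO library assume that the remaining one varies like the others. Its usual partner Col8a2 was low, at 0.896 and 0.471 TPM in cKO and 0.482 and 0.718 TPM in Control.

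The bases before the start of Col8a1 are shown because it is the collagen gene with the smallest p. They are the 250 bases upstream of the start (chr16:57754738-57754987, minus strand, RefSeq on GRCm38.p6), with the letters CCGCCC in capitals. CCGCCC is the reverse complement of GGGCGG, a motif bound by factors of the Sp family.
Col8a1: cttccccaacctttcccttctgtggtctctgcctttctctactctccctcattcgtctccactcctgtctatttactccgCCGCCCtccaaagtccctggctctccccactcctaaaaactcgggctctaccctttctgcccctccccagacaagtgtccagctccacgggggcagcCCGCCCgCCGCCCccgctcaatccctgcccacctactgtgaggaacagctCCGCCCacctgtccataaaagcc

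The motif GGGCGG, searched on both strands, was present in the windows of 22 of the 35 collagen genes (62.9%) and of 38.2% of all genes with a window. It can overlap other GC-rich motifs. A match is a description of the sequence and does not show that a factor binds.

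**Figure D4:**
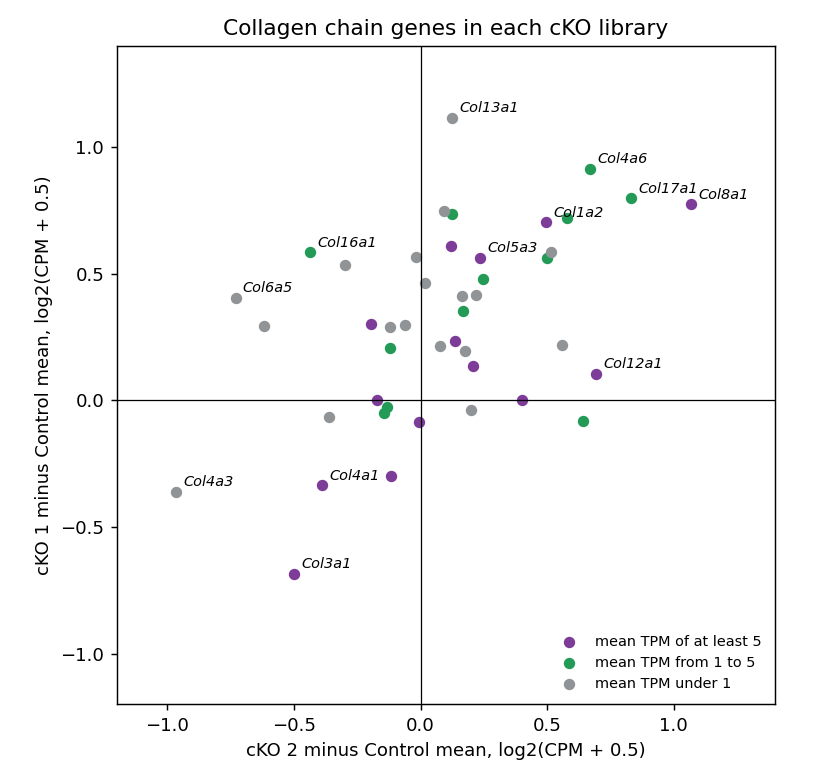
Difference of each cKO library from the Control mean in log2(CPM + 0.5), with cKO 2 on the horizontal and cKO 1 on the vertical axis. Each point is 1 of the 44 collagen chain genes, coloured by mean TPM. Both axes use the same Control mean, so points on the diagonal are no independent agreement. Col8a1, at 1.07 and 0.77, lies far from 0 on both axes, while Col13a1, at 0.12 and 1.12, is high in cKO 1 only.

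The fibril-associated chains, which sit on the surface of fibrils, comprised 9 genes of types 9, 12, 14, 16, 19, 20 and 22, with a median log2 fold change of 0.27 and 0 called. Col19a1 was the most abundant of them and the number 5 of all collagen genes by level, at 30.8 and 27.3 TPM in cKO and 24.1 and 20.2 TPM in Control. Both cKO libraries were above both Control libraries in TPM, while the CPM overlapped, at 61.8 and 81.6 in cKO and 69.0 and 55.2 in Control (0.21, SE 0.34, adjusted p = 1.00 in edgeR). Col12a1, a large chain of dense connective tissue, stood at 30.4 and 45.9 CPM in cKO and 33.3 and 23.9 CPM in Control (0.42, SE 0.33). The value was 0.70 without cKO 1 and 0.020 without cKO 2, and 0.66 without Control 1 and 0.18 without Control 2. Col16a1 was split by library, at 11 and 5.15 CPM in cKO and 6.30 and 8.10 CPM in Control, so the cKO libraries were the highest and the lowest. Col20a1 stood at 6.21 and 5.93 CPM in cKO, against 3.25 and 5 CPM in Control (0.56, SE 0.34). Col9a3, a cartilage chain, stood at 1.76 and 1.55 CPM in cKO, against 0.605 and 1.20 CPM in Control (0.87, SE 0.51), with 0.44 when Control 1 was left out and 1.42 when Control 2 was left out. It shares 234 exonic bases with a gene on the opposite strand, Tcfl5, so reads of the pair may not have been separated. Col22a1, a chain of the junction between muscle and tendon, stood at 2.86 and 2.24 CPM in cKO, against 2.90 and 3.14 CPM in Control (-0.24, SE 0.39).

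The transmembrane collagens, 4 genes whose products span the plasma membrane, all had positive values, with a median of 0.63 and 0 called. Col17a1, a component of hemidesmosomes in skin, stood at 5.46 and 5.59 CPM in cKO, against 2.95 and 2.90 CPM in Control. The replicates were close together and did not overlap (log2 fold change 0.92, SE 0.35, unadjusted p = 0.00862, adjusted p = 0.491 in edgeR). The sign was positive in each of the 10 alternatives that kept this gene, from 0.72 to 1.09. Col13a1, which takes part in the maturation of the neuromuscular junction, stood at 1.63 and 0.571 CPM in cKO, against 0.328 and 0.667 CPM in Control. Its log2 fold change of 1.14 (SE 0.60) was the highest of the 44 and rested on cKO 1, since cKO 2 lay between the Control libraries. Col23a1 stood at 5.80 and 9.88 CPM in cKO, against 6.18 and 6.14 CPM in Control, so only cKO 2 was above Control. Col25a1, needed for motor innervation of muscle, had 1.71 and 2.11 CPM in cKO and 1.58 and 1.99 CPM in Control.

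The multiplexins Col15a1 and Col18a1 are collagens of basement membrane zones that carry endostatin-type domains. Col18a1 stood at 26.3 and 18.7 CPM in cKO, against 16.8 and 17.5 CPM in Control (log2 fold change 0.39, SE 0.32), and the value was 0.14 with cKO 1 left out. Col15a1 stood at 9.83 and 9.16 CPM in cKO and 7.85 and 13.2 CPM in Control (-0.15, SE 0.32). Of the remaining genes, Col7a1, the chain of the anchoring fibrils of skin, had a log2 fold change of 0.38, Col26a1 of 0.06 and Col28a1 of 0.76, the last with 1.70 and 1.59 CPM in cKO against 1.13 and 0.813 CPM in Control.

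Levels near the background limit what can be said of the lower genes. The 95th percentile of the receptor genes was 1.85 and 0.689 TPM in cKO 1 and cKO 2, against 0.847 and 1.12 TPM in Control 1 and Control 2. In all 4 libraries 24 of the 44 collagen genes were above it, and 11 were above it in none, among them Col2a1, Col8a2, Col9a1, Col9a2, Col10a1 and Col6a4 to Col6a6. The lowest of all, Col10a1, a chain of hypertrophic cartilage, had 31 and 52 counts in cKO and 28 and 11 counts in Control, whereas Col3a1 had 35792 and 41760 counts in cKO and 46371 and 61639 in Control. Of the genes named above with the larger fold changes, Col8a1, Col4a6, Col17a1 and Col1a2 were above the receptor percentile in all 4 libraries, while Col4a3, Col13a1 and Col28a1 exceeded it in 1 library each and Col9a3 in 2.

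The ratio of count to TPM gives the mean transcript length that the deposited values imply for a gene, and it can move with the transcripts assigned to a gene or with noise in either estimate. Transcript use was not tested. The implied length was stable for most of the abundant chains. Of the 14 genes with a mean of at least 5 TPM, 12 varied by less than 1.1 times between libraries, Col3a1 for example between 5405 and 5432 bases. Over all 44 genes, 20 varied by less than 1.1 times and 10 by more than 1.5 times. Col12a1, which is known in long and short splice forms, had implied lengths of 7048 and 7971 bases in cKO, against 4999 and 6773 bases in Control. With such lengths entered as offsets its log2 fold change was -0.023 in place of 0.42. Col6a3 had 4037 and 5972 bases in cKO and 5901 and 3210 bases in Control, with no separation of the groups. Col9a3 varied most of the 44 genes, by 3.05 times, with 2777 and 911 bases in cKO and 1058 and 2468 bases in Control. Col28a1 had 3149 and 2473 bases in cKO, against 4267 and 4276 bases in Control, on 148 and 142 counts in cKO and 90 and 67 counts in Control. Col8a1 was stable, at 4906 and 4959 bases in cKO and 5001 and 5052 bases in Control.

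Genes that act on collagen were read from the same fit. For comparison, 0.551% of all genes tested were called, 4.83% had an unadjusted p under 0.05 and 55.0% had a positive log2 fold change in edgeR. Of 25 genes of collagen synthesis in the endoplasmic reticulum, 0 rose and 0 fell in edgeR, 5 had an unadjusted p under 0.05, and the median log2 fold change was -0.16, against 0.06 for all genes and 0.27 for the collagen chains. P4hb, a subunit of the prolyl hydroxylase, stood at 463 and 656 CPM in cKO, against 760 and 760 CPM in Control (-0.44, SE 0.38). Its catalytic partner P4ha1 stood at 135 and 213 CPM in cKO and 206 and 190 CPM in Control (-0.19, SE 0.35). Sparc, a collagen-binding matrix protein, stood at 320 and 422 CPM in cKO, against 472 and 547 CPM in Control (-0.46, SE 0.37). A pair of further genes of this list was chosen after their values were seen. P3h2, a prolyl hydroxylase that acts on collagen of basement membranes, stood at 15.9 and 22.9 CPM in cKO, against 5.45 and 14.2 CPM in Control (0.98, SE 0.32, adjusted p = 0.233 in edgeR). Serpinh1, the collagen chaperone HSP47, varied within Control, at 110 and 70.5 CPM in cKO and 99.4 and 242 CPM in Control (-0.92, SE 0.35, adjusted p = 0.509).

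Of 17 genes of collagen maturation 0 were called (2 at an unadjusted p under 0.05), with a median of 0.07. Lox, which starts the cross-linking of fibrils, stood at 672 and 956 CPM in cKO and 896 and 692 CPM in Control (0.04, SE 0.38). Tgm2, a transglutaminase, had 129 and 194 CPM in cKO and 191 and 203 CPM in Control, and the protease Furin had 71.2 and 77.8 CPM in cKO and 22.8 and 73.4 CPM in Control. Of 17 collagen receptors 0 were called (2 at an unadjusted p under 0.05), with a median of 0.21. Itgb1, the β1 integrin, stood at 487 and 772 CPM in cKO and 476 and 585 CPM in Control. The collagen receptor kinase Ddr2 stood at 229 and 394 CPM in cKO and 384 and 408 CPM in Control. Calcr, the calcitonin receptor, stood at 106 and 176 CPM in cKO and 273 and 125 CPM in Control (-0.50, SE 0.35), so its Control libraries enclosed both cKO libraries. Of 21 matrix proteins that organise fibrils 0 were called (2 at an unadjusted p under 0.05) and 18 had a positive value, with a median of 0.27. Prelp, a leucine-rich proteoglycan, stood at 980 and 1061 CPM in cKO, against 570 and 558 CPM in Control (0.86, SE 0.38, adjusted p = 0.826 in edgeR). Thbs2 stood at 636 and 1045 CPM in cKO and 968 and 826 CPM in Control, and Ogn at 208 and 281 CPM in cKO and 241 and 232 CPM in Control.

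Collagens are also made by other cells of muscle, and the markers of these cells were read beside them. The shares over all genes tested in edgeR were 0.551% called, 4.83% at an unadjusted p under 0.05 and 55.0% with a positive log2 fold change. The 12 satellite cell markers summed to 15021 and 16037 TPM in cKO and to 16140 and 15226 TPM in Control, and 0 were called. Sdc4 alone made up 10958 and 11823 TPM of this sum in cKO and 12058 and 11384 TPM in Control. Without it the sum was 4063 and 4214 TPM in cKO and 4082 and 3842 TPM in Control. Of the 12 log2 fold changes 8 were negative, with a median of -0.17. Pax7, which had the smallest unadjusted p of this list, went the other way. It stood at 38.9 and 49.3 CPM in cKO, against 26.5 and 22.7 CPM in Control (0.84, SE 0.33, adjusted p = 0.556 in edgeR). The 12 markers of fibro-adipogenic cells and fibroblasts, the main collagen producers of muscle, summed to 2169 and 1977 TPM in cKO, against 1728 and 1779 TPM in Control. Of these 0 were called and 11 had a positive log2 fold change, with a median of 0.27. Gsn alone held 1145 and 1066 TPM of the sum in cKO, against 849 and 937 TPM in Control, and without it the sum was 1023 and 911 TPM in cKO, against 878 and 843 TPM in Control. The fibroblast marker Dpt had a log2 fold change of -0.22 and Lox one of 0.04. Of the fibroblast markers, Cd34 is a known surface marker of quiescent satellite cells as well. Lox is also in the maturation list, and Dcn and Lum are also fibril organisers. The tenocyte markers Kera, Thbs4, Comp and Fmod are fibril organisers too. Calcr (satellite cell) and Cspg4 (pericyte) are also in the receptor list. The medians of lists that share genes are therefore not independent. Pdgfra, the defining receptor of fibro-adipogenic cells, was low, at 3.21 and 1.65 TPM in cKO and 1.16 and 1.72 TPM in Control. The 12 endothelial markers summed to 553 and 431 TPM in cKO, against 324 and 361 TPM in Control, 0 were called, 10 had a positive value and the median was 0.31. Without Aqp1, the most abundant of them, the sum was 324 and 294 TPM in cKO, against 228 and 245 TPM in Control. The 10 markers of pericytes and smooth muscle summed to 231 and 194 TPM in cKO and 202 and 191 TPM in Control, with 0 called, 7 positive and a median of 0.05. The 8 tenocyte markers summed to 78.6 and 50 TPM in cKO and 47.6 and 54.4 TPM in Control, with 0 called, 5 positive and a median of 0.08. Tnc had the smallest unadjusted p of these 8, at 17.5 and 20.1 CPM in cKO against 36.3 and 39.5 CPM in Control (-1.01, SE 0.33, adjusted p = 0.217 in edgeR). The 10 Schwann cell markers summed to 181 and 208 TPM in cKO and 179 and 182 TPM in Control, the 8 macrophage markers to 52.7 and 43.4 TPM in cKO against 29.1 and 31.0 TPM in Control, and the 8 markers of mature fibres to 64.2 and 40.1 TPM in cKO and 63.6 and 60.1 TPM in Control. In each of these 3 lists 0 were called. The log2 fold change was positive for 6 of the Schwann markers (median 0.31) and 7 of the macrophage markers (median 0.53), and negative for 6 of the mature fibre markers (median -0.45). Itgam had the smallest unadjusted p of the 8 macrophage markers and went the other way. Its level was 0.287 and 0.224 CPM in cKO, against 0.529 and 1.47 CPM in Control (-1.96, SE 0.66, adjusted p = 0.267 in edgeR). Without Cd68, the most abundant macrophage marker, the sum was 36.33 and 20.03 TPM in cKO, against 13.18 and 17.14 TPM in Control. Between 0 and 3 genes of each marker list had an unadjusted p under 0.05 in edgeR. No marker in any of the lists was at 0 in all 4 libraries. Of all 55487 genes only 1017 were, so this does not show that a cell type was present. The fibroblast, endothelial and macrophage sums were higher in both cKO libraries, as were Col8a1, Col1a2, Col4a6 and Col17a1. Col3a1, the most abundant chain, was lower in both, and Col4a1 was lower in both in CPM but not in TPM. Of all genes averaging 1 TPM or more, 32.0% had both cKO libraries higher in TPM and 15.7% had both lower. The part of these cells in the collagen values was not tested, nor was that of the higher cKO 1 background in the marker sums.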

How the data were processed

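RNA-seq was made from satellite cells of 2 cKO and 2 Control samples. Per the labels' protocols, 10 ng of RNA per sample went into SMART-Seq cDNA and an MGI library. GRCm38, StringTie 1.3.6 and HISAT2 2.1.0 are listed in the submitters' processing notes, with no roles. The sources used here do not give an annotation release, a strand setting or filters.

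The authors deposited estimated counts per gene, already whole numbers and used without further rounding, and TPM per gene, corrected for transcript length by the authors, a unit that keeps no depth. All 44 collagen genes matched GENCODE release M21 by versioned identifier, which supplied coordinates. Near-identical sequence was checked by 50-mers, of which at most 4.87% of any collagen gene's occurred in another gene.

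Counts were fitted over the whole table with edgeR 4.0.16 in R 4.3.3 (TMM, filterByExpr, robust quasi-likelihood test, Benjamini-Hochberg adjustment over 38143 genes, threshold 0.05). The SE was taken as the absolute log2 fold change over the root of the F statistic. Genes averaging 1 TPM or more were tested on log2(TPM + 1) with limma 3.58.1, using a robust trend, a scale that understates changes of low genes. DESeq2 1.42.0, other normalizations and filters, a block for the replicate number and leaving out each library were alternatives, and offsets for the implied transcript length were added after the data were seen. The scripts were tested on simulated data, with changes placed in genes averaging at least 5 CPM. There edgeR recovered 18% of 2-fold and 98% of 4-fold changes, with 21 false calls. For limma the shares were 25% and 99%, with 24 false calls.

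Implied lengths are count over TPM, scaled in each library by genes for which GENCODE has 1 transcript and whose counts all exceed 200. Libraries of a group differed by more than counting noise (chi-square over degrees of freedom of 83.5 for cKO and 49.6 for Control), so none is another's file deposited again. Separate preparations from a single RNA would also differ in this way, so this does not show separate animals. The rule for named genes takes the Notch-target collagens, any called gene, the 16 most abundant, the 6 highest and 6 lowest fold changes at a mean of at least 1 CPM, and the 3 most abundant genes of each other list. Any other gene was picked with its values in view. The members and lists were chosen with earlier results of these data known.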

Additional observations from a re-analysis of the deposited data

How the results depend on the processing

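Over all genes, 210 were called on counts, 119 with DESeq2 size factors, 28 without a count filter, 14 for genes reaching 5 CPM in 2 libraries, 96 in DESeq2, 129 with length offsets, and between 51 and 2267 with 1 library left out. With the replicate number as a block the count was 96 and 0 collagen genes were called. Same-numbered libraries also share the middle part of their library code, and the labels do not say what the number or the code marks. They did not deviate together (correlation -0.16), and the number was not used as a pairing.

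The count of called collagen genes was 0 on counts. It was 1 with library totals only (Col8a1) and between 0 and 2 with 1 library left out, Col8a1 without cKO 1, and Col8a1 and Col3a1 without cKO 2. On TPM it was 0, with 1 for log2(TPM + 0.1), 1 with no filter on low TPM (Col8a1 in both) and between 0 and 2 with 1 library left out, Col8a1 and Col3a1 without Control 1 and Col8a1 without Control 2. The cause of these differences was not tested.

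Of 23 collagen genes named by the rule, 16 kept their sign under each of the 11 alternatives to the counts fit that could be had. The log2 fold change of Col12a1 was -0.023 with length offsets, that of Col15a1 was 0.026 with library totals, and Col1a1 stood at -0.027 with DESeq2 size factors and in DESeq2. Library totals gave 0.10 for Col4a2 and 0.12 for Col6a1, and the filter at 5 CPM gave 0.062 for Col4a2 and 0.079 for Col6a1. With 1 library left out, Col15a1 ranged from -0.49 to 0.25, Col16a1 from -0.47 to 0.54, Col19a1 from -0.074 to 0.41, Col1a1 from -0.20 to 0.27 and Col6a1 from -0.16 to 0.0046. Of the genes that kept their sign, Col5a1 ranged from 0.07 to 0.22, Col5a3 from 0.25 to 0.51, Col22a1 from -0.42 to -0.15 and Col28a1 from 0.51 to 1.00, and Col28a1 stood at 1.37 with length offsets. Fits without 1 library leave a lone sample in its group, which is assumed to vary like the others. With 2 libraries a group, the spread between libraries and not depth limits the abundant chains, while the 18 genes under 1 TPM are also limited by the background.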
